A study of Mus musculus with 10 samples.

Results

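Colon RNA of 4 libraries from mice fed curcumin was set against that of 4 libraries from mice fed no curcumin, all after the same carcinogen and colitis protocol, out of 10 libraries in the series. The 4 curcumin-containing libraries were 2 of group ASA+CUR and 2 of group CUR, and the 4 curcumin-free libraries were 2 of group ASA and 2 of group Model. They were chosen by diet label alone, with no use of measured values. All 8 came from C57BL/6 mice that received azoxymethane (AOM), a colon carcinogen, at 10 mg/kg under the skin at 6 weeks of age, and then, a week later, 1.2% dextran sulfate sodium (DSS), a polysaccharide that injures the colon epithelium, in drinking water for 7 days. ASA+CUR mice ate AIN-93M diet with 0.01% aspirin (ASA) and 1% curcumin (CUR), CUR mice ate it with 2% curcumin, ASA mice ate it with 0.02% aspirin, and Model mice ate it with no addition. Group Control, with 2 libraries, received saline in place of AOM and no DSS, and enters only as a level for orientation. The combined diet thus carried less of each agent than the single diets, and a curcumin contrast that pools ASA+CUR and CUR pools a 1% and a 2% diet.

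The labels call the AOM/DSS tissue tumor samples, while the extraction protocol describes colon from which the proximal end and palpable tumors had been taken off, and the labels do not settle which of these was sequenced. The Wnt target Axin2 stood at 95.6 and 111 FPKM in ASA+CUR and 44.1 and 93.7 FPKM in CUR, against 65.0 and 77.5 FPKM in ASA and 74.4 and 61.3 FPKM in Model, and at 13.9 and 13.0 FPKM in Control. The Paneth cell lysozyme gene Lyz1, a product of the small intestine that normal mouse colon largely lacks, stood at 897 and 989.8 FPKM in ASA+CUR and 1245 and 1193 FPKM in CUR, against 1021 and 1602 FPKM in ASA and 1746 and 2760.2 FPKM in Model, and at 7.24 and 6.48 FPKM in Control. Whether a group's 2 libraries are separate mice is not given in the labels, and p-values speak only of the spread among libraries, part of which may be technical.

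Curcumin is the yellow polyphenol of turmeric. It is known from cell and animal work as an inhibitor of NF-kB signalling, the pathway that switches on inflammatory genes, and as an activator of Nrf2, the transcription factor of the antioxidant response. In AOM/DSS colon, injury and inflammation drive epithelial regrowth, and tumors that form usually carry active Wnt signalling. Aspirin acetylates the cyclooxygenases that make prostaglandins.

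The values are FPKM (fragment numbers scaled by transcript length and library size) that the authors deposited per transcript, summed here per gene. Every library had between 12781 and 13283 genes at 1 FPKM or more, and the test took in the 14061 genes that reached 1 FPKM in 2 or more libraries. Ribosomal protein genes took between 14.0% of all FPKM, in ASA+CUR replicate 1, and 18.2%, in CUR replicate 0. Differences are on the log2(FPKM + 1) scale, curcumin-containing minus curcumin-free, which understates the change of low genes. Tests are limma's with Benjamini-Hochberg adjustment over all 14061 genes, and errors of differences are limma's standard errors (SE).

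The 8 libraries differed, also within groups, in genes that mark colon position and squamous epithelium. Genes of distal colon position (6 Hox genes such as Hoxd13, which keep the head-to-tail address of a tissue) had a mean log2(FPKM + 1) of 4.77 and 4.77 in ASA+CUR and 1.34 and 4.61 in CUR, against 4.54 and 1.56 in ASA and 2.67 and 1.58 in Model, replicate 0 before replicate 1 as everywhere below. Thus 3 of the 4 curcumin-containing libraries and 1 of the 4 curcumin-free libraries were high. Hoxd13 itself stood at 87.7 and 65.2 FPKM in ASA+CUR and 0.0323 and 71.6 FPKM in CUR, against 75.7 and 0.0566 FPKM in ASA and 8.35 and 0.0850 FPKM in Model. Squamous epithelium genes, 14 in number, averaged 4.56 and 2.43 in ASA+CUR and 2.30 and 1.96 in CUR, against 3.66 and 1.98 in ASA and 3.31 and 0.94 in Model. Krt5, a keratin of the basal layer of squamous epithelium, was at 212 and 0.0662 FPKM in ASA+CUR and 0.0739 and 0.0308 FPKM in CUR, against 94.5 and 0.0324 FPKM in ASA and 10.3 and 0.130 FPKM in Model. The part of position or of squamous tissue in the differences below was not tested apart from a fit with each score as a covariate. Values of these fits are given beside some of the results only.

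**Figure D1:**
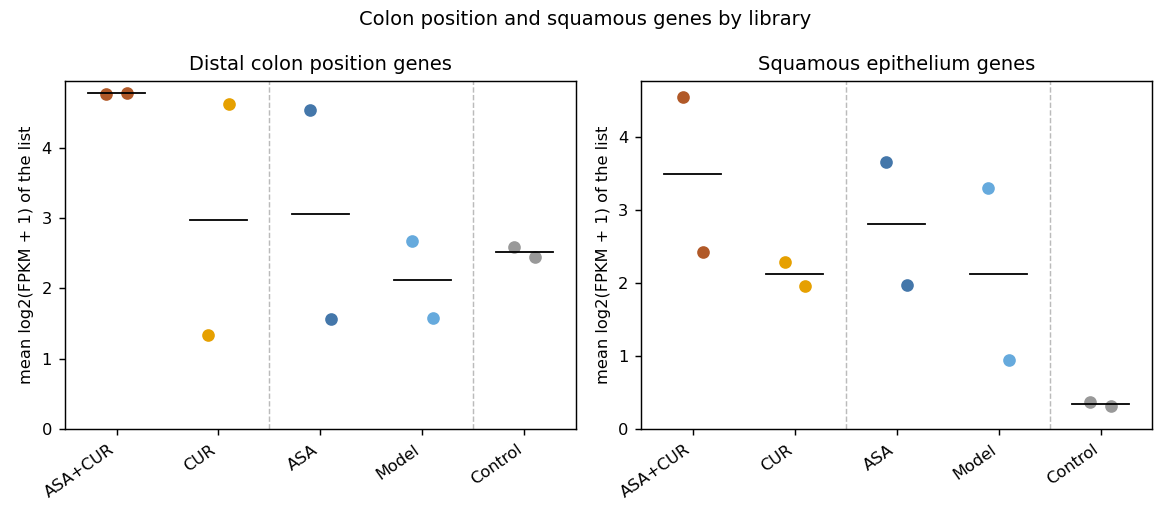
Mean log2(FPKM + 1) per library of 6 distal colon position genes (left) and 14 squamous epithelium genes (right). Points are libraries, bars are group means of 2 libraries, and dashed lines part the curcumin-containing groups, the curcumin-free groups and Control. Distal position scores of 4.54 or more occur in 3 curcumin-containing libraries and in 1 curcumin-free library.

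The pooled comparison asks what curcumin in the diet did to the colon transcriptome, with or without aspirin. The smallest p-values were those of Cd177, Steap4 and Nox1. These genes were lower with curcumin, at ratios of 0.343 to 0.473 to the curcumin-free level. Tppp3 was among the higher genes. No gene passed an adjusted p of 0.05, so 0.0% of the genes tested were called, and the smallest adjusted p was 0.143. At an unadjusted p under 0.05 there were 623 genes (4.43%), of which 300 (2.13%) were higher and 323 (2.3%) lower, and 17 genes were under 0.001. A share of 4.43% is no more than a threshold of 0.05 gives when nothing differs, so the 623 show no excess. The 4 libraries a side did not overlap for 225 genes (1.6%), 120 higher (0.853%) and 105 lower (0.747%). The median difference over all genes was 0.00. For 12478 genes (88.7%) the 95% interval of the difference lay within a 2-fold change of FPKM + 1 either way. For low genes this does not bound the FPKM itself to 2-fold. The median SE was 0.162.

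Cd177 is best known as a surface glycoprotein of neutrophils. It stood at 51.0 and 70.7 FPKM in ASA+CUR and 32.6 and 44.5 FPKM in CUR, against 144 and 149.9 FPKM in ASA and 125 and 146 FPKM in Model. Every curcumin-containing library was below every curcumin-free library and below both Control libraries, which had 108 and 79.6 FPKM. The log2 difference was -1.54 ± 0.164 (SE; 95% interval -1.92 to -1.16), a ratio of 0.343, with a limma adjusted p of 0.143. The difference was -1.28 ± 0.231 between ASA+CUR and ASA, and -1.80 ± 0.231 between CUR and Model, which share no library. Other neutrophil genes are described below with their cell type.

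Steap4, a membrane reductase of iron and copper that inflammation induces in mouse colon, stood at 13.4 and 18.7 FPKM in ASA+CUR and 10.0 and 8.49 FPKM in CUR, against 37.9 and 34.8 FPKM in ASA and 26.8 and 33.1 FPKM in Model. The groups did not overlap, and Control lay lower still at 3.84 and 2.69 FPKM. The log2 difference was -1.37 ± 0.153 (SE; 95% interval -1.72 to -1.02), a ratio of 0.387, with a limma adjusted p of 0.143. It was -1.15 ± 0.217 in the aspirin-fed pair of groups and -1.59 ± 0.217 in the aspirin-free pair.

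Nox1, the catalytic subunit of the NADPH oxidase that makes superoxide in colon epithelium, stood at 5.26 and 7.62 FPKM in ASA+CUR and 5.01 and 7.04 FPKM in CUR, against 15.1 and 15.3 FPKM in ASA and 13.0 and 13.2 FPKM in Model. The replicates were close in ASA and Model and further apart in ASA+CUR and CUR. Control, at 12.8 and 12.3 FPKM, lay near the curcumin-free libraries. The log2 difference was -1.08 ± 0.145 (SE; 95% interval -1.41 to -0.75), a ratio of 0.473, with a limma adjusted p of 0.26. Nos2, the inducible nitric oxide synthase, another source of reactive species and an NF-kB target, stood at 3.94 and 2.11 FPKM in ASA+CUR and 9.14 and 4.89 FPKM in CUR, against 23.6 and 16.7 FPKM in ASA and 12.1 and 8.76 FPKM in Model. CUR replicate 0 lay above Model replicate 1, so its groups overlapped, and its difference of -1.48 ± 0.309 had a limma adjusted p of 1.00. Duox2, the dual oxidase that makes hydrogen peroxide at the epithelial surface, stood at 20.4 and 25.5 FPKM in ASA+CUR and 51.2 and 24.7 FPKM in CUR, against 46.0 and 82.8 FPKM in ASA and 55.0 and 34.1 FPKM in Model, and its difference was -0.84 ± 0.280. For Duox2, CUR replicate 0 was the only curcumin-containing library above a curcumin-free one.

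Of the 15 genes with the smallest p among those lower, 11 had libraries that did not overlap, beside 0.747% of all genes. Choice by p favours such genes, so the count adds no support. Pcsk1, the convertase that cuts prohormones in endocrine cells, was at 0.824 and 0.826 FPKM in ASA+CUR and 0.890 and 0.820 FPKM in CUR, against 0.956 and 1.48 FPKM in ASA and 3.53 and 3.35 FPKM in Model. Its low level was shared by ASA replicate 0, and Control had 7.84 and 9.38 FPKM. Alb, the gene of serum albumin, which the liver makes, was at 2.71 and 2.43 FPKM in ASA+CUR and 10.5 and 10.8 FPKM in CUR, against 6.03 and 23.4 FPKM in ASA and 46.9 and 112 FPKM in Model, and its groups overlapped because ASA replicate 0 lay below both CUR libraries. Ceacam10 and Ceacam12 encode members of the carcinoembryonic antigen family. Ceacam10 stood at 18.9 and 24.7 FPKM in ASA+CUR and 13.8 and 23.4 FPKM in CUR, against 44.6 and 128 FPKM in ASA and 57.1 and 129 FPKM in Model. Ceacam12 stood at 4.82 and 3.46 FPKM in ASA+CUR and 3.67 and 1.98 FPKM in CUR, against 10.8 and 10.4 FPKM in ASA and 6.36 and 5.01 FPKM in Model. Reads of such near-identical family members can be divided differently by the authors' transcript model, so these values are uncertain. Lrig1, a brake on ErbB growth factor receptors that also marks epithelial progenitors, was at 14.6 and 17.1 FPKM in ASA+CUR and 18.0 and 20.6 FPKM in CUR, against 22.2 and 25.4 FPKM in ASA and 30.9 and 24.5 FPKM in Model, with Control highest at 47.0 and 46.9 FPKM. Galnt10, which starts mucin-type O-glycan chains, was at 13.2 and 12.5 FPKM in ASA+CUR and 23.2 and 23.5 FPKM in CUR, against 18.3 and 27.2 FPKM in ASA and 31.5 and 34.1 FPKM in Model, with its lowest values in ASA+CUR. Fabp5, a fatty acid-binding protein, was at 37.8 and 39.5 FPKM in ASA+CUR and 31.0 and 26.2 FPKM in CUR, against 43.4 and 52.0 FPKM in ASA and 48.4 and 60.1 FPKM in Model. The remaining lower genes were Cthrc1, Krt87, Angpt4 and H2-Q10, with differences between -1.45 (Angpt4) and -0.58 (H2-Q10, which has near-identical relatives). Angpt4, a ligand of the endothelial receptor Tie2, was at 1.25 and 1.53 FPKM in ASA+CUR and 0.715 and 0.596 FPKM in CUR, against 1.90 and 4.78 FPKM in ASA and 3.68 and 10.1 FPKM in Model.

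**Figure D2:**
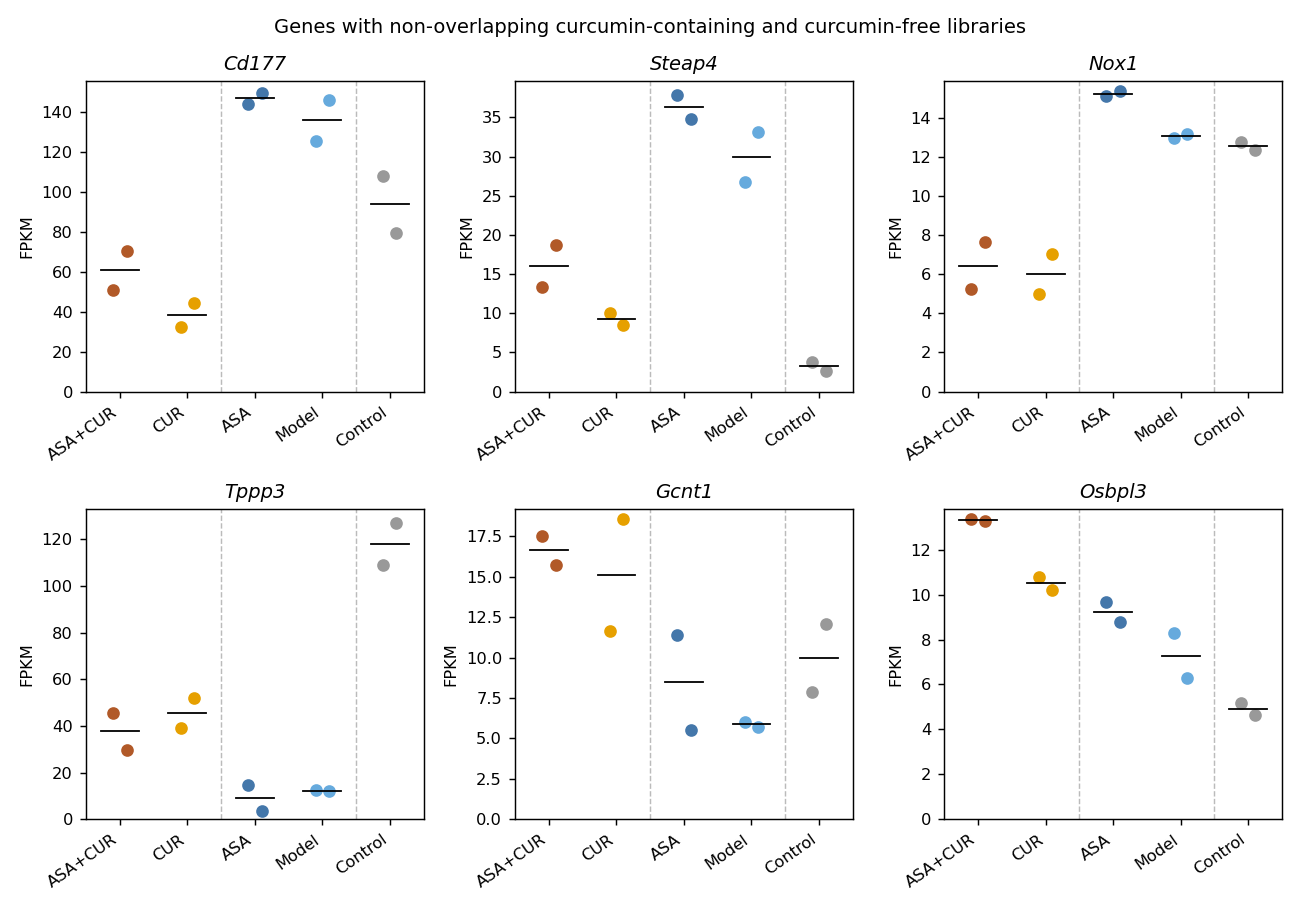
FPKM per library of Cd177, Steap4, Nox1, Tppp3, Gcnt1 and Osbpl3 in the 5 groups. Points are libraries, bars are group means of 2 libraries, and dashed lines part curcumin-containing groups, curcumin-free groups and Control. In each panel the 4 curcumin-containing libraries lie on a single side of the 4 curcumin-free ones, as for Cd177 at 32.6 to 70.7 against 125 to 149.9 FPKM; no gene passed an adjusted p of 0.05.

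Among the 15 genes with the smallest p on the higher side, 5 had libraries that did not overlap, beside 0.853% of all genes, a count that choice by p favours too. Tppp3, a tubulin-binding protein, stood at 45.6 and 29.8 FPKM in ASA+CUR and 39.0 and 52.0 FPKM in CUR, against 14.8 and 3.41 FPKM in ASA and 12.4 and 12.2 FPKM in Model. Control had 109 and 127 FPKM, so the curcumin-containing libraries lay between Control and the curcumin-free ones. The difference was 1.99 ± 0.362 (SE; 95% interval 1.15 to 2.82), a ratio of 3.96, with a limma adjusted p of 0.768. Without ASA replicate 1, the lowest library, it was 1.52, and without ASA replicate 0 it was 2.45 with an adjusted p of 0.0217.

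Gcnt1, which adds the core 2 branch to mucin O-glycans, stood at 17.5 and 15.7 FPKM in ASA+CUR and 11.6 and 18.5 FPKM in CUR, against 11.4 and 5.54 FPKM in ASA and 6.04 and 5.73 FPKM in Model, a difference of 1.08 ± 0.241. The lowest curcumin-containing library and the highest curcumin-free library differed by only a small margin. Osbpl3, an oxysterol-binding protein relative, stood at 13.4 and 13.3 FPKM in ASA+CUR and 10.8 and 10.2 FPKM in CUR, against 9.67 and 8.78 FPKM in ASA and 8.29 and 6.28 FPKM in Model. Bpifb1 and Bpifb5, secreted proteins of the bactericidal permeability-increasing fold, differed by 0.94 ± 0.228 and 1.08 ± 0.173. Bpifb5 stood at 6.74 and 8.83 FPKM in ASA+CUR and 3.01 and 3.48 FPKM in CUR, against 1.72 and 3.13 FPKM in ASA and 1.28 and 1.70 FPKM in Model, so CUR replicate 0 lay below ASA replicate 1.

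Several of the higher genes had their highest values in both ASA+CUR libraries, which had the highest distal scores; the squamous score was highest in ASA+CUR replicate 0, while replicate 1 lay below ASA replicate 0 and Model replicate 0. Serpinb8, a serine protease inhibitor, stood at 4.13 and 3.42 FPKM in ASA+CUR and 0.975 and 1.43 FPKM in CUR, against 1.34 and 0.930 FPKM in ASA and 0.738 and 0.788 FPKM in Model. Krt90, a keratin, stood at 5.62 and 5.94 FPKM in ASA+CUR and 1.80 and 3.28 FPKM in CUR, against 2.48 and 0.608 FPKM in ASA and 1.10 and 0.942 FPKM in Model. Trex2, a DNA exonuclease, stood at 5.35 and 4.79 FPKM in ASA+CUR and 2.49 and 2.82 FPKM in CUR, against 2.76 and 1.64 FPKM in ASA and 1.08 and 0.703 FPKM in Model. Xlr3a, of a mouse X-linked family with near-identical copies, stood at 6.41 and 5.90 FPKM in ASA+CUR and 1.11 and 0.337 FPKM in CUR, against 0.403 and 0.0889 FPKM in ASA and 0.616 and 0.133 FPKM in Model, and its value is uncertain for that reason. The differences were 0.74 for Serpinb8, 1.15 for Krt90, 0.95 for Trex2 and 1.42 for Xlr3a. With the distal position score as a covariate they were 0.63 for Serpinb8, 0.81 for Krt90, 0.81 for Trex2 and 1.45 for Xlr3a. With the squamous score as a covariate, a fit added after the data were seen, they were 0.72 for Serpinb8, 1.10 for Krt90, 0.90 for Trex2 and 1.36 for Xlr3a. Snora70, which guides chemical modification of ribosomal RNA, stood at 35.4 and 39.4 FPKM in ASA+CUR and 40.5 FPKM in CUR replicate 1 and was listed at 0 in the other 5 AOM/DSS libraries, so no fold is given. The others on the higher side were Arhgap40, Wincr1, Dusp9 and Fam167a, with differences between 0.63 (Dusp9) and 1.35 (Wincr1).

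All 30 of these leading genes, chosen by p in the same data, kept their direction with the distal position score as a covariate. Under it Cd177 was at -1.61, Steap4 at -1.33, Nox1 at -1.16 and Tppp3 at 1.56, with a smallest adjusted p of 0.407. With the squamous score Cd177 was at -1.50 and Steap4 at -1.33. Leaving out each library in turn put Cd177 between -1.66 and -1.43, Steap4 between -1.48 and -1.26 and Nox1 between -1.20 and -0.96.

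The genes that curcumin is best known to act on gave no call, as was so for every gene tested. Among 31 tested Nrf2 targets, 0 passed the adjusted threshold and 0 were at an unadjusted p under 0.05, beside 4.43% of all genes. There were 11 differences above 0 and 20 below, with a median of -0.09, beside 0.00 over all genes. Nqo1, the quinone reductase that reports Nrf2 activity, stood at 16.8 and 9.08 FPKM in ASA+CUR and 21.0 and 9.11 FPKM in CUR, against 24.2 and 15.4 FPKM in ASA and 17.7 and 18.4 FPKM in Model, and its difference of -0.48 had a 95% interval from -1.13 to 0.18. Hmox1, haem oxygenase, stood at 55.6 and 312 FPKM in ASA+CUR and 20.9 and 28.7 FPKM in CUR, against 76.0 and 159 FPKM in ASA and 30.2 and 109.6 FPKM in Model. ASA+CUR replicate 1 was by far the highest, and the interval ran from -1.83 to 0.88, the widest of the Nrf2 targets named here. Gclc and Gclm, the catalytic and modifier subunits of the enzyme that limits glutathione synthesis, differed by 0.09 (-0.26 to 0.44) and -0.30 (-0.74 to 0.14). Txnrd1 (thioredoxin reductase) differed by -0.13 (-0.62 to 0.35) and Srxn1 (sulfiredoxin) by 0.16 (-0.68 to 1.01). For Gclc, Gclm and Txnrd1 the intervals thus bound the change in FPKM + 1 to less than 2-fold in either direction. The aryl hydrocarbon receptor genes Cyp1a1 and Cyp1b1 were under 1 FPKM in every library and were not tested.

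NF-kB targets and cytokines had more pooled differences below 0 than above, but the pairs went opposite ways, and none passed. Of 20 tested NF-kB targets, 5 differences were above 0 and 15 below, with a median of -0.13. Nos2 and Nfkb1 were at an unadjusted p under 0.05, both lower, beside 2.3% of all genes. Nfkb1, which encodes the p105 precursor, stood at 36.7 and 35.7 FPKM in ASA+CUR and 25.0 and 31.4 FPKM in CUR, against 41.3 and 42.7 FPKM in ASA and 40.0 and 37.0 FPKM in Model. Of 26 tested cytokine and chemokine genes, 8 differences were above 0 and 18 below, and the median was -0.17. In the pooled comparison 0 were at an unadjusted p under 0.05, beside 4.43% of all genes. Without ASA replicate 0 the pooled medians were -0.01 for NF-kB targets and 0.04 for cytokines and chemokines. Between ASA+CUR and ASA 17 NF-kB targets were below 0 (median -0.26), while between CUR and Model 13 were above 0 (median 0.15, and -0.01 without Model replicate 0). Of the cytokines and chemokines 23 were below 0 between ASA+CUR and ASA (median -0.55) and 19 above 0 between CUR and Model (median 0.24). Il6 stood at 0.998 and 4.63 FPKM in ASA+CUR and 1.15 and 0.342 FPKM in CUR, against 12.3 and 1.22 FPKM in ASA and 1.64 and 0.432 FPKM in Model, with 1 high library, ASA replicate 0. Tnf differed by 0.08 (95% interval -0.38 to 0.54) and Il1b by -0.09 (-0.76 to 0.58). Ptgs2, the inducible cyclooxygenase that aspirin acetylates and an NF-kB target, was at 19.0 and 43.4 FPKM in ASA+CUR and 33.4 and 12.8 FPKM in CUR, against 33.2 and 6.82 FPKM in ASA and 11.9 and 1.81 FPKM in Model. The replicates of each group differed from each other by more than 2-fold, and the difference of 1.36 had an interval from -0.18 to 2.90.

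Growth genes, like all genes tested, gave no call. The 25 tested Wnt targets had a pooled median of 0.08 (-0.09 to 0.19 on leaving out each library). At an unadjusted p under 0.05 Cd44 and Bambi were higher (2.13% of all genes) and Mmp7 lower (2.3% of all genes). Cd44, a cell adhesion receptor and Wnt target, stood at 57.1 and 67.2 FPKM in ASA+CUR and 58.1 and 42.7 FPKM in CUR, against 41.3 and 48.5 FPKM in ASA and 41.5 and 39.7 FPKM in Model. Axin2 differed by 0.23 (95% interval -0.27 to 0.74), Myc by 0.08 (-0.32 to 0.48) and Ccnd1 by 0.24 (-0.04 to 0.52). DNA replication and mitosis genes, 30 tested, had a pooled median of 0.09 with 0 at an unadjusted p under 0.05 (4.43% of all genes). The median ran from -0.14 (without Model replicate 1) to 0.33 (without Model replicate 0), and it was -0.06 with the position covariate. The pairs differed in both lists. Between ASA+CUR and ASA 30 of 30 DNA replication and mitosis genes were above 0 (median 0.32), while between CUR and Model 22 of 30 were below 0 (median -0.14, and 0.29 without Model replicate 0). Of the 25 Wnt targets 21 were above 0 between ASA+CUR and ASA (median 0.23) and 18 below 0 between CUR and Model (median -0.23, and 0.07 without CUR replicate 0). Cdkn1a, the cyclin-dependent kinase inhibitor p21, stood at 137 and 183 FPKM in ASA+CUR and 242 and 178 FPKM in CUR, against 156 and 113 FPKM in ASA and 127 and 95.2 FPKM in Model, a difference of 0.58 ± 0.180, and its libraries overlapped. Hdac1 and Dnmt1, a histone deacetylase and the maintenance DNA methyltransferase, differed by 0.16 (-0.13 to 0.45) and 0.01 (-0.38 to 0.41).

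Most genes of secretory stress had lower values with curcumin, though none passed. In the unfolded protein response list 17 of 20 differences were below 0, with a median of -0.28, and 5 genes (Hspa5, Dnajb9, Xbp1, Pdia4 and Sdf2l1) were at an unadjusted p under 0.05 and lower, beside 2.3% of all genes. Hspa5, the main chaperone of the endoplasmic reticulum (BiP), stood at 256 and 293 FPKM in ASA+CUR and 214 and 216 FPKM in CUR, against 342 and 428 FPKM in ASA and 451 and 364 FPKM in Model, and its libraries did not overlap. Xbp1, a transcription factor of that response and of secretory cells, stood at 108 and 109.7 FPKM in ASA+CUR and 144 and 111 FPKM in CUR, against 146 and 143 FPKM in ASA and 166 and 202 FPKM in Model. Control libraries were at 412 and 273 FPKM for Hspa5 and 217 and 171 FPKM for Xbp1. The median was -0.14 with the position covariate. Plasma cells depend on these genes, and their joining chain gene Jchain was uneven. It stood at 108 and 72.2 FPKM in ASA+CUR and 143 and 165 FPKM in CUR, against 87.5 and 162 FPKM in ASA and 323 and 1038 FPKM in Model. The list of B and plasma cells had 5 of 10 differences below 0 and a median of -0.25 (-0.60 without Model replicate 0 and 0.10 without Model replicate 1), and its part in the result was not tested.

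Heat shock genes had 15 of 16 differences below 0 and a median of -0.32, but the pooled value hid unlike pairs. It was -0.09 between ASA+CUR and ASA, and -0.58 between CUR and Model, where all 16 were below 0. Hspa1b, an inducible Hsp70, stood at 8.60 and 5.49 FPKM in ASA+CUR and 5.20 and 3.38 FPKM in CUR, against 5.87 and 9.11 FPKM in ASA and 44.5 and 17.2 FPKM in Model, so Model replicate 0 was highest and only Model stood out. Hsph1, an Hsp110 co-chaperone, stood at 16.0 and 23.8 FPKM in ASA+CUR and 20.8 and 18.7 FPKM in CUR, against 16.7 and 72.4 FPKM in ASA and 65.0 and 61.2 FPKM in Model, with ASA replicate 0 as low as the curcumin-containing libraries. Hspa1a and Hspa1b are near-identical copies whose reads cannot be told apart with certainty.

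Epithelial and mucosal lists differed gene by gene. Zg16, a goblet cell lectin that binds bacteria, stood at 619 and 672 FPKM in ASA+CUR and 3876 and 1838 FPKM in CUR, against 609 and 395 FPKM in ASA and 1063 and 729.6 FPKM in Model, a difference of 1.00 ± 0.277, with CUR far above the rest among AOM/DSS libraries and Control at 4639.6 and 5628 FPKM. Aqp8, a colonocyte water channel, stood at 12.5 and 10.4 FPKM in ASA+CUR and 132 and 52.5 FPKM in CUR, against 12.7 and 8.66 FPKM in ASA and 29.6 and 7.71 FPKM in Model. Car4, the carbonic anhydrase of surface colonocytes, stood at 31.7 and 14.2 FPKM in ASA+CUR and 163 and 158 FPKM in CUR, against 27.2 and 13.6 FPKM in ASA and 69.7 and 13.9 FPKM in Model. In both, the high values were those of CUR, and ASA+CUR lay with ASA. Pigr, the receptor that carries IgA into the lumen, stood at 301 and 124 FPKM in ASA+CUR and 236 and 508 FPKM in CUR, against 532 and 435 FPKM in ASA and 516 and 494 FPKM in Model, a difference of -0.93 ± 0.319 with the lowest value in ASA+CUR replicate 1. In the mucosal defence list as a whole 16 of 21 differences were below 0, with a median of -0.64 (-0.39 without ASA replicate 1 and -0.40 without ASA+CUR replicate 0). Among Paneth cell genes 11 of 12 were below 0, with a median of -1.16 (-0.65 with the position covariate). This median was -1.82 without ASA replicate 0 and -0.43 without ASA replicate 1. It was -0.44 between ASA+CUR and ASA, where it turned to 1.04 without ASA replicate 1 and 0.23 without ASA+CUR replicate 0, and -1.85 between CUR and Model, where it stayed between -2.20 and -1.54. Lyz1 differed by -0.64 ± 0.196 and Mmp7, matrilysin, stood at 220.0 and 347 FPKM in ASA+CUR and 347 and 303 FPKM in CUR, against 376 and 526 FPKM in ASA and 475 and 403 FPKM in Model. The alpha-defensin Defa5 stood at 21.8 and 40.0 FPKM in ASA+CUR and 15.4 and 62.5 FPKM in CUR, against 14.9 and 130.1 FPKM in ASA and 171 and 264 FPKM in Model, with ASA replicate 0 as low as the curcumin-containing libraries, and defensin copies share reads. In bulk tissue fewer cells of a type and less RNA per cell cannot be told apart.

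Most stromal, vascular and immune lists had medians below 0, with sizes that hung on single libraries. Endothelial genes had 13 of 13 differences below 0 (median -0.44), fibroblast and matrix genes 15 of 16 (median -0.33), enteric neuron and glia genes 13 of 13 (median -0.14), smooth muscle genes 14 of 15 (median -0.39), macrophage and dendritic cell genes 14 of 15 (median -0.38), mast cell genes 9 of 11 (median -0.79) and T and NK cell genes 10 of 11 (median -0.40). Eosinophil genes did not, with 3 of 4 above 0 and a median of 0.04 (-0.19 to 0.19 on leaving out each library). With the position covariate these medians were -0.36, -0.28, -0.17, -0.48, -0.16, -0.36 and -0.08, in the order of the lists before eosinophils. Without Model replicate 0 and without Model replicate 1, the median was -0.71 and -0.21 for endothelial genes, -0.57 and -0.16 for fibroblast and matrix genes, -0.59 and -0.19 for macrophage and dendritic cell genes, and -0.81 and -0.006 for T and NK cell genes. Without ASA replicate 0 and without ASA replicate 1 it was -0.61 and -0.12 for macrophage and dendritic cell genes and -1.34 and -0.44 for mast cell genes, which stood at -1.26 without CUR replicate 0. Smooth muscle genes stood at -0.24 without CUR replicate 0, and enteric neuron and glia genes stayed between -0.18 and -0.12. The enteric list was low, with a mean log2(FPKM + 1) of 0.64 to 1.09 in the AOM/DSS libraries. Its members were below 0 in 13 of 13 between CUR and Model (median -0.23) and in 8 of 13 between ASA+CUR and ASA (median -0.06). Col1a1, a chain of type I collagen, stood at 153 and 122 FPKM in ASA+CUR and 81.0 and 95.7 FPKM in CUR, against 210.4 and 174 FPKM in ASA and 113 and 202 FPKM in Model. Grem1, a BMP antagonist of stromal cells, stood at 27.4 and 48.5 FPKM in ASA+CUR and 9.92 and 16.2 FPKM in CUR, against 31.0 and 52.0 FPKM in ASA and 38.5 and 61.5 FPKM in Model, and the difference was -0.14 ± 0.383 between ASA+CUR and ASA, whose libraries overlapped, and -1.86 ± 0.383 between CUR and Model. Among neutrophil genes 8 of 9 tested were below 0, with a median of -0.43 (-0.07 without ASA replicate 1 and -0.21 without ASA+CUR replicate 0), and Mmp9, a neutrophil gelatinase, stood at 11.1 and 13.1 FPKM in ASA+CUR and 8.68 and 11.9 FPKM in CUR, against 19.9 and 66.8 FPKM in ASA and 20.7 and 31.6 FPKM in Model without overlap. The summed FPKM of the neutrophil genes was 412 and 320.2 in ASA+CUR and 114 and 172 in CUR, against 374 and 612 in ASA and 220.1 and 142 in Model, so the sums overlapped where Cd177 did not. In Control, which is no part of the curcumin difference, that sum was 5.20 and 2.61 and Cd177 stood at 108 and 79.6 FPKM. The part of neutrophil number in the Cd177 difference among the AOM/DSS libraries was not tested.

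Across the 48 lists, medians lay between -1.16 (Paneth cell) and 1.19 (distal colon position), and 0 members passed the adjusted threshold. Metal and clock genes stood at the upper end among pathways. In the circadian clock list 12 of 14 differences were above 0 with a median of 0.33 (0.16 with the position covariate, 0.55 without CUR replicate 0, 0.18 without CUR replicate 1 and 0.21 without Model replicate 0). Per2, a repressor of the clock, stood at 10.7 and 3.88 FPKM in ASA+CUR and 5.20 and 7.30 FPKM in CUR, against 5.22 and 2.30 FPKM in ASA and 2.32 and 3.60 FPKM in Model. Arntl, the clock activator (Bmal1), went the other way at 4.98 and 7.07 FPKM in ASA+CUR and 6.75 and 4.64 FPKM in CUR, against 7.92 and 6.63 FPKM in ASA and 10.1 and 8.87 FPKM in Model. The labels give no hour of tissue collection. Among 9 tested metallothionein and zinc genes Mt4, Mt3 and Slc30a1 were higher at an unadjusted p under 0.05, beside 2.13% of all genes. The zinc exporter Slc30a1 stood at 6.60 and 6.44 FPKM in ASA+CUR and 7.85 and 7.76 FPKM in CUR, against 5.46 and 5.98 FPKM in ASA and 5.78 and 6.08 FPKM in Model, a small shift of 0.26 ± 0.101 without overlap. Sult2b1, which sulfates cholesterol and other sterols, stood at 19.6 and 14.0 FPKM in ASA+CUR and 29.4 and 14.0 FPKM in CUR, against 11.5 and 6.63 FPKM in ASA and 11.1 and 7.58 FPKM in Model without overlap. Trf, transferrin, stood at 54.8 and 71.5 FPKM in ASA+CUR and 35.6 and 56.0 FPKM in CUR, against 92.3 and 92.9 FPKM in ASA and 61.4 and 133 FPKM in Model, a difference of -0.78 ± 0.249.

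**Figure D3:**
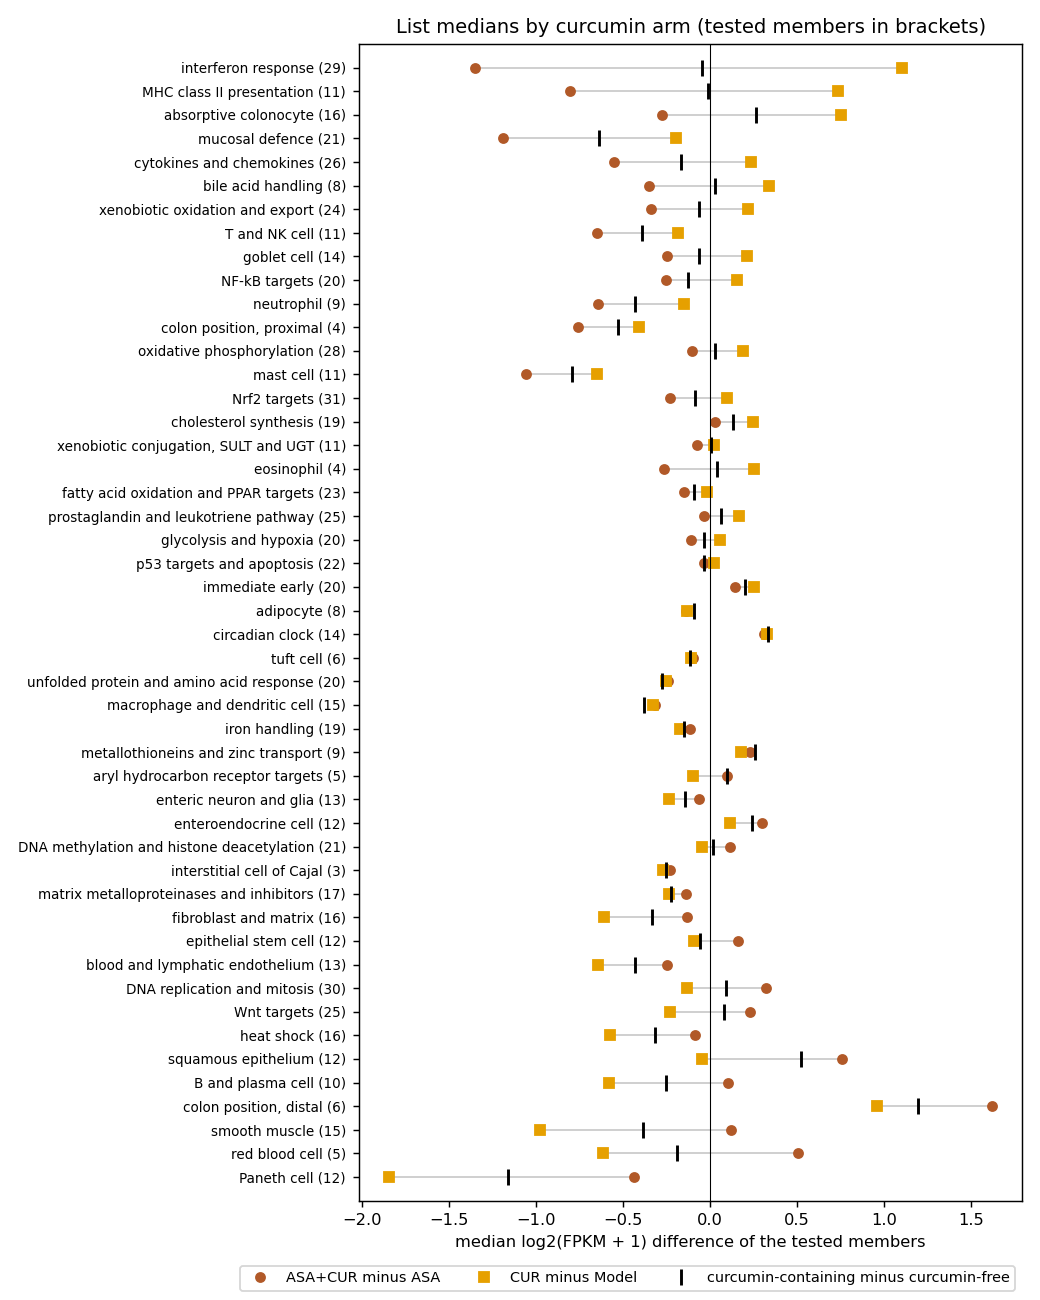
Median log2(FPKM + 1) difference of the tested members of 48 gene lists. Circles are ASA+CUR minus ASA, squares CUR minus Model and upright bars the pooled curcumin-containing minus curcumin-free difference; numbers in brackets are members tested. The interferon response list has the widest spread between the pairs, at -1.35 and 1.10, with a pooled median of -0.05.

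The design holds the curcumin contrast in separate pairs, ASA+CUR against ASA and CUR against Model, which share no library. Each gene can thus be compared between a pair fed aspirin and a pair without it. Doses differed too, with 0.01% aspirin and 1% curcumin in ASA+CUR, 0.02% aspirin in ASA and 2% curcumin in CUR. ASA+CUR against ASA is therefore also a contrast of aspirin doses. A difference between pairs cannot be told apart from these doses. Over all genes the pairs were only weakly related. Across the 14061 genes Pearson's r between the pair differences was 0.084 and Spearman's rho 0.061. Genes are not independent replicates, and this is a description. Between ASA+CUR and ASA 0 genes passed (0.0%) and 399 (2.84%) were at an unadjusted p under 0.05, 139 of them higher (0.989%) and 260 lower (1.85%). Between CUR and Model 1 gene passed (0.00711%) and 684 (4.86%) were at an unadjusted p under 0.05, 381 of them higher (2.71%) and 303 lower (2.15%). The gene that passed is given in the table only as transcript NM_010039, at 14.2 and 6.81 FPKM in Model and listed at 0 in the other 8 libraries, with a limma adjusted p of 0.0346. Of these genes 82 were shared, 20.6% of the first set and 12.0% of the second, with 37 in the same direction and 45 in opposite directions. Both pairs were tested with the same estimate of each gene's spread. A gene with a small estimate can thus reach a small p in both, and the overlap is a description, not independent agreement.

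Among the 37, 16 were higher and 21 lower in both pairs. They include Cd177, Steap4, Nox1, Tppp3, Alb, Ceacam10, Ceacam12, Lrig1, Gcnt1 and Osbpl3. Ezr, which ties the brush border membrane to actin and was chosen after its values were seen, stood at 269 and 253 FPKM in ASA+CUR and 287 and 215 FPKM in CUR, against 195 and 128 FPKM in ASA and 163 and 106 FPKM in Model.

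**Figure D4:**
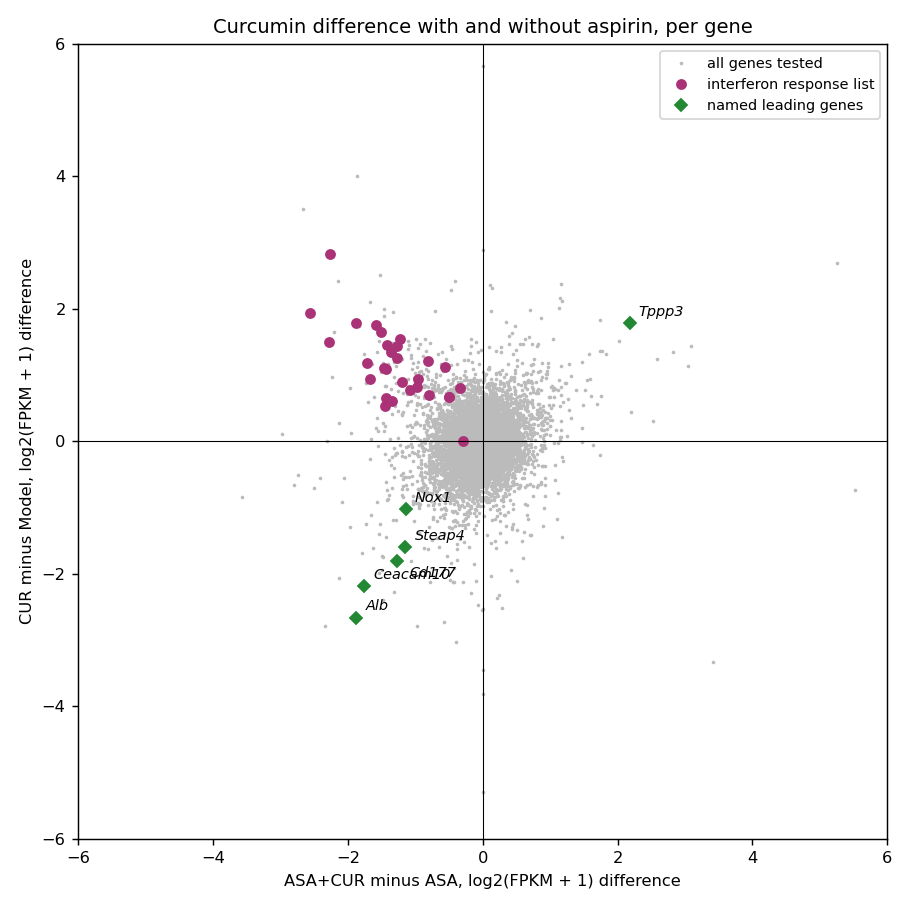
Difference per gene in log2(FPKM + 1) between ASA+CUR and ASA (horizontal) and between CUR and Model (vertical) for 14061 genes. Grey points are genes, purple points the 29 tested interferon response genes and green diamonds 6 named leading genes. Cd177, Steap4, Nox1, Ceacam10 and Alb lie low on both axes and Tppp3 high on both, while interferon genes lie left of 0 and, apart from Ddx58 at 0.00, above 0.

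The largest contrast between the pairs lay in interferon response genes, which cells switch on when they sense interferon. They were lower in ASA+CUR than in ASA and higher in CUR than in Model, and the pooled difference was near 0. Of 29 tested members, 29 differences were below 0 in the aspirin-fed pair (median -1.35) and 29 above 0 in the aspirin-free pair (median 1.10, with Ddx58 nearest to 0), and the pooled median was -0.05. The median for ASA+CUR minus ASA shrank to -0.64 without ASA replicate 1 and to -0.77 without ASA+CUR replicate 1, within a range of -1.78 to -0.64 on leaving out each library. That for CUR minus Model shrank to 0.66 without CUR replicate 0, within a range of 0.66 to 1.29. The mean log2(FPKM + 1) of the list was 3.36 and 2.47 in ASA+CUR, against 4.03 and 4.37 in ASA. It was 5.10 and 4.56 in CUR, against 3.55 and 3.81 in Model, and 2.55 and 2.53 in Control. CUR was thus the highest group and ASA+CUR the lowest AOM/DSS group. Libraries did not overlap for 19 of 29 members, all lower, between ASA+CUR and ASA (18.0% of all genes), and for 24 of 29, all higher, between CUR and Model (12.0% of all genes). At an unadjusted p under 0.05, 12 members were lower in ASA+CUR than in ASA, beside 1.85% of all genes. At that level 10 were higher in CUR than in Model, beside 2.71% of all genes, and none passed adjustment in either pair.

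**Figure D5:**
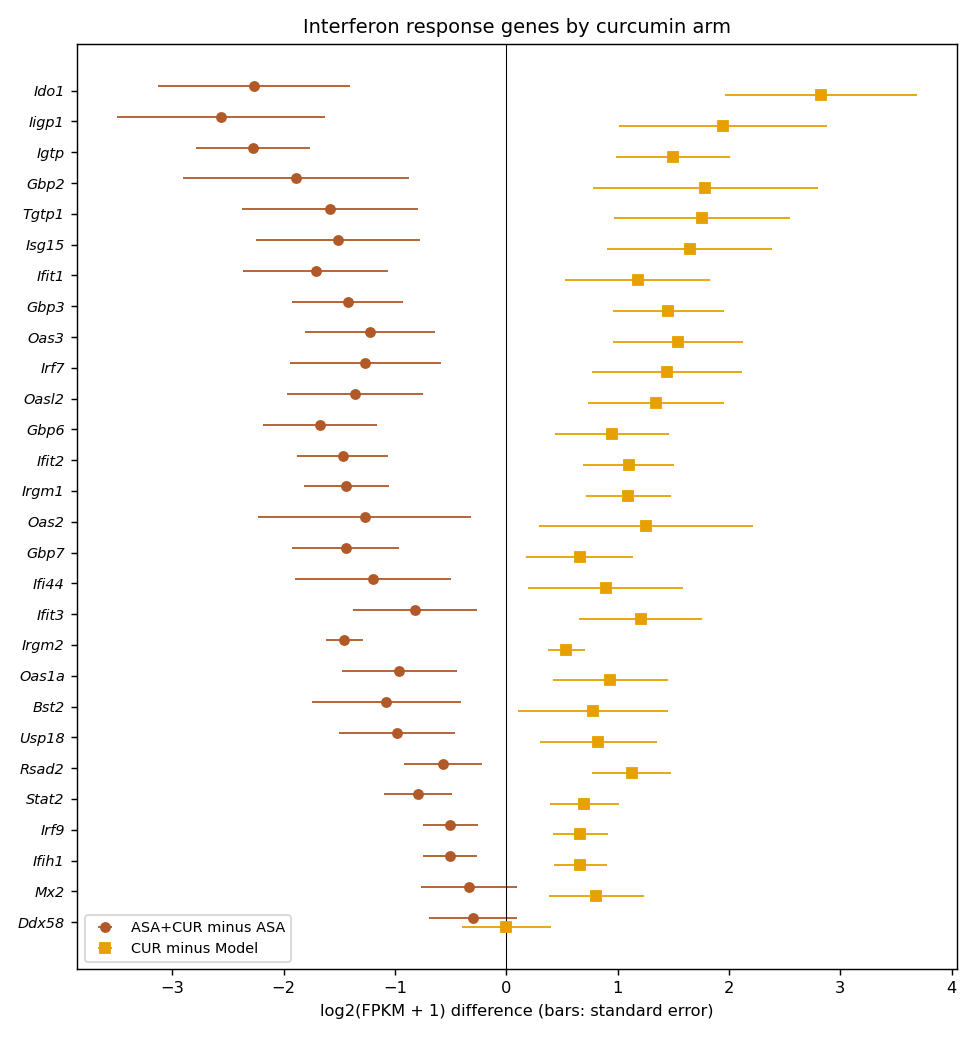
Log2(FPKM + 1) difference of 28 interferon response genes between ASA+CUR and ASA (circles) and between CUR and Model (squares). Bars are limma standard errors, with 2 libraries a group. Circles lie between -2.56 (Iigp1) and -0.30 (Ddx58) and squares between 0.00 (Ddx58) and 2.83 (Ido1).

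The difference between the pairs, that is the ASA+CUR minus ASA difference less the CUR minus Model difference, was tested per gene. No gene passed (0.0%), and 452 (3.21%) were at an unadjusted p under 0.05, of which 124 (0.882%) were positive and 328 (2.33%) negative. In the interferon list 24 of 29 members were at an unadjusted p under 0.05, all negative, with a median of -2.53. Irgm2, an immunity-related GTPase that interferon-gamma induces in mice, stood at 14.5 and 12.0 FPKM in ASA+CUR against 36.6 and 39.2 FPKM in ASA and at 30.4 and 37.3 FPKM in CUR against 21.3 and 24.5 FPKM in Model. Its replicates were close in every group, and the log2 difference was -1.46 for ASA+CUR minus ASA and 0.54 for CUR minus Model. The contrast between these pair differences had an SE of 0.237 and a limma adjusted p of 0.226, the smallest of any named gene. The next genes by p were Parp14, Parp9, Dtx3l and Gm12250, none of them on the list. Parp14, an ADP-ribosyltransferase, stood at 12.3 and 7.08 FPKM in ASA+CUR against 21.2 and 21.4 FPKM in ASA and at 25.5 and 23.0 FPKM in CUR against 11.4 and 12.9 FPKM in Model. Parp9 stood at 29.1 and 19.1 FPKM in ASA+CUR against 37.1 and 40.2 FPKM in ASA and at 43.0 and 39.4 FPKM in CUR against 18.6 and 22.4 FPKM in Model, and its partner, the ubiquitin ligase Dtx3l, had a difference between pairs of -1.39 ± 0.251.

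The promoters of Irgm2, the member with the smallest p for the difference between pairs, and of Ifit1 and Isg15, classical interferon-induced genes whose replicates differed more, are shown for the element that interferon-induced transcription factors bind. They are RefSeq sequences of GRCm38.p6, from 250 bases before to 50 after the annotated start, 5′ to 3′ on the gene's strand, with matches to the interferon-stimulated response element core (TTTC, any 2 bases, TTTC), searched on both strands, in capitals. They lie at chr11:58214727-58215026 (plus strand, Irgm2), chr19:34640639-34640938 (plus strand, Ifit1) and chr4:156200769-156201068 (minus strand, Isg15).
Irgm2: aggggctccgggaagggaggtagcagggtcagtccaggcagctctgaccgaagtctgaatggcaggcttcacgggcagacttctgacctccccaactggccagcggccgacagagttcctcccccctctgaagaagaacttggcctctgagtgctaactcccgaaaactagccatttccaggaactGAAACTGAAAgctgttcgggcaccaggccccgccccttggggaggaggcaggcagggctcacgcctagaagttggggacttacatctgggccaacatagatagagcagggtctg
Ifit1: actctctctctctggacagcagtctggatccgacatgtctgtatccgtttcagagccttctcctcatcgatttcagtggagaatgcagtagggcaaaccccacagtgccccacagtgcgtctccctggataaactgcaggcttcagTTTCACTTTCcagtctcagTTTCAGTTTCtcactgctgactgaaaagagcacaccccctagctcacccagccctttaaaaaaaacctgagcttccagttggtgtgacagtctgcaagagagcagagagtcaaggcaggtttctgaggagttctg
Isg15: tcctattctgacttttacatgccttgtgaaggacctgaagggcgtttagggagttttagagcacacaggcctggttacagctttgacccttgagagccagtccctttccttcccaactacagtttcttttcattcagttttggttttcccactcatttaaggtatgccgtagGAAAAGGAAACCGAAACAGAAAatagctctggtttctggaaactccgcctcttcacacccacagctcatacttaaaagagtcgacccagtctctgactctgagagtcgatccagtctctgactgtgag
Irgm2 has 1 match, 64 bases before the start. Ifit1 has 2, at 104 and 85 bases before it, and Isg15 has 3 overlapping ones from 78 to 66 bases before it, which run together in capitals. Of 25 promoter windows of the list (22 genes had an entry) 17 held the core (68.0%), beside 1131 of 32851 windows of all promoters searched (3.44%), and 0 of 32 windows of Nrf2 targets. A match is a description of the letters and not a binding site.

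Ifit1, which binds viral RNA, stood at 5.82 and 4.28 FPKM in ASA+CUR against 8.31 and 40.5 FPKM in ASA and at 63.9 and 26.2 FPKM in CUR against 18.1 and 17.0 FPKM in Model. Isg15, a ubiquitin-like modifier, stood at 19.8 and 11.5 FPKM in ASA+CUR against 27.5 and 72.6 FPKM in ASA and at 309 and 56.9 FPKM in CUR against 42.5 and 41.1 FPKM in Model. For both, ASA replicate 0 lay near ASA+CUR, and the height of CUR came mostly from replicate 0. The guanylate-binding protein Gbp2 stood at 36.8 and 6.20 FPKM in ASA+CUR against 175 and 20.1 FPKM in ASA and at 36.1 and 72.9 FPKM in CUR against 13.2 and 15.2 FPKM in Model. Iigp1, another immunity-related GTPase, stood at 14.4 and 0.844 FPKM in ASA+CUR against 57.6 and 15.9 FPKM in ASA and at 23.4 and 41.1 FPKM in CUR against 5.83 and 9.16 FPKM in Model. In these genes the order of the replicates was turned round, with ASA replicate 0 above replicate 1 and CUR replicate 1 above replicate 0. Ido1, which degrades tryptophan, stood at 7.27 and 1.31 FPKM in ASA+CUR against 51.3 and 7.49 FPKM in ASA and at 66.6 and 52.3 FPKM in CUR against 5.87 and 9.45 FPKM in Model. In all, 9 members were higher in ASA replicate 0 and 20 in ASA replicate 1, so the ASA libraries carried unlike sets of interferon genes while both lay above ASA+CUR in the list mean. The interferon-gamma gene Ifng itself was under the level for testing, at 0 and 0 FPKM in ASA+CUR and 0.217 and 0.422 FPKM in CUR, against 1.28 and 0 FPKM in ASA and 0.0629 and 0.191 FPKM in Model.

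Chemokines that interferon-gamma induces followed the same order. Cxcl9 stood at 4.66 and 0.0977 FPKM in ASA+CUR against 12.6 and 8.03 FPKM in ASA and at 25.5 and 30.2 FPKM in CUR against 2.58 and 6.96 FPKM in Model. Cxcl10 stood at 6.49 and 1.38 FPKM in ASA+CUR against 22.3 and 8.80 FPKM in ASA and at 19.9 and 32.4 FPKM in CUR against 7.02 and 6.67 FPKM in Model. Genes of MHC class II presentation had medians of -0.81 in the aspirin-fed pair (-1.30 to -0.22 on leaving out each library, the smallest without ASA+CUR replicate 1) and 0.73 in the aspirin-free pair (0.19 without Model replicate 0 to 1.29 without Model replicate 1). Cd74, the invariant chain that escorts class II molecules, stood at 572 and 304 FPKM in ASA+CUR against 947 and 623 FPKM in ASA and at 1470.2 and 997 FPKM in CUR against 456 and 982 FPKM in Model, and Model replicate 1 lay close to CUR replicate 1. Tnf had a difference between pairs of -1.38 ± 0.399, at an unadjusted p of 0.00859 and a limma adjusted p of 0.987.

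The interferon medians of the pairs, and of the difference between pairs, depended on library and position in size but not in sign. The pooled median, near 0, did change sign. It ran from -0.26 (without ASA+CUR replicate 0) to 0.19 (without ASA replicate 1) and was 0.26 with the position covariate. Leaving out each library in turn put the list's median difference between pairs at -2.77 to -1.89, and the count at an unadjusted p under 0.05 at 17 (without ASA+CUR replicate 1) to 26. With the position covariate the median was -0.53 for ASA+CUR minus ASA and 1.26 for CUR minus Model, and -2.26 between pairs. The summed FPKM of T and NK cell genes was 20.9 and 20.6 in ASA+CUR and 48.8 and 33.4 in CUR, against 31.2 and 50.9 in ASA and 24.1 and 81.6 in Model. That of macrophage and dendritic cell genes was 468 and 497 in ASA+CUR and 582 and 442 in CUR, against 449.7 and 890.1 in ASA and 458 and 870.5 in Model. Their part in the interferon difference was not tested.

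Smooth muscle and colonocyte genes also separated the pairs. In smooth muscle genes the median was 0.12 between ASA+CUR and ASA, and -0.98 between CUR and Model, where 13 of 15 did not overlap and were lower (12.1% of all genes). Desmin (Des) stood at 27.8 and 21.2 FPKM in ASA+CUR against 13.9 and 17.5 FPKM in ASA and at 23.6 and 34.8 FPKM in CUR against 68.4 and 83.3 FPKM in Model, so Model was the only AOM/DSS group that was high, and Control had 1451 and 851 FPKM. The labels do not record how much muscle wall each piece held. The CUR minus Model median was -0.64 without CUR replicate 0, and the ASA+CUR minus ASA median ran from -0.03 to 0.29 on leaving out each library. Absorptive colonocyte genes had medians of -0.28 for ASA+CUR minus ASA (-0.06 without ASA+CUR replicate 1) and 0.75 for CUR minus Model (0.22 without CUR replicate 0). Guca2a, guanylin, stood at 163 and 128 FPKM in ASA+CUR against 130.1 and 217 FPKM in ASA and at 2017 and 283 FPKM in CUR against 404 and 422 FPKM in Model, with the height of CUR coming from replicate 0.

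Aspirin-containing against aspirin-free diets, over the same 8 libraries, gave 2 called genes (0.0142%) and 1668 (11.9%) at an unadjusted p under 0.05, beside 4.43% for curcumin. Distal position scores were uneven across this split too, high in ASA+CUR, ASA replicate 0 and CUR replicate 1. With the position covariate 921 genes were at an unadjusted p under 0.05 for aspirin and 658 for curcumin. The called genes were Gcg, the proglucagon gene of enteroendocrine cells, and Hba-a2, an alpha-globin gene. Gcg stood at 3.78 and 3.95 FPKM in ASA+CUR and 4.48 and 3.58 FPKM in ASA, against 12.4 and 10.9 FPKM in CUR and 12.8 and 9.75 FPKM in Model. Its curcumin difference was 0.00 (95% interval -0.28 to 0.29). Hba-a2 has a near-identical copy and shares reads with it.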

How the data were processed

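Per the labels' protocols, libraries from mouse colon RNA used the TruSeq RNA v2 kit. The authors deposited an FPKM estimate for each of 30073 RefSeq transcripts in each of 10 libraries. Per the submitters' processing notes, the tools were Cuffdiff (version not given in the sources used here), Bowtie2 2.1.0.0, TopHat2 2.0.9 and bcl2fastq 2.17.1.14, with builds GRCm38 and mm10. The notes as held here give no order, annotation version or treatment of strand and multi-mapping fragments. Such a program divides fragments between transcripts by a model, so the deposited FPKM values are estimates, and near-identical genes are uncertain.

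Transcripts were named from RefSeq (29443, GRCm38.p6) and GENCODE (179), 451 kept their identifier, and FPKM was summed to 23473 rows. Read totals are unknown, no counts were recovered and no count test was run. Zeros may be failed estimates, so such genes are called listed at 0.

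Rows with 1 FPKM or more in 2 or more of the 10 libraries (14061) were taken to log2 after adding 1 to FPKM. The model (limma 3.58.1, R 4.3.3) used an intensity trend, a mean for each of 5 groups and no replicate block (5 residual and 2.96 prior degrees of freedom). The curcumin contrast is the mean of ASA+CUR and CUR minus the mean of ASA and Model. Tests are two-sided, adjusted by Benjamini-Hochberg within a comparison over all rows tested, at a threshold of 0.05. The fit was checked on simulated data.

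Named genes are the 15 smallest p-values in each direction (fewer than 10 genes passed), up to 4 members of each of 48 lists by p, 20 fixed genes and the 6 smallest p-values of each other comparison; further list members and Ezr were chosen after their values were seen. Some genes that the rule names are not reported here. The comparison, the members and the lists were chosen with earlier results of these data known, so they give no independent support. Alternatives were another pseudocount, no filter, upper-quartile scaling, the 8 AOM/DSS libraries alone, a replicate block, no trend, a position covariate, additive and single-factor fits, each library left out, and a squamous covariate added after the data were seen.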

Additional observations from a re-analysis of the deposited data

Results flagged for a closer look

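Within groups of 4 libraries, 94 were examined for a library far from the other 3, and 5 had a gap of more than 0.829 of the range, about as many as the 1 in 20 that chance gives. Hmox1 stood at 312 FPKM in ASA+CUR replicate 1, far above the other curcumin-containing libraries at 20.9 to 55.6 FPKM. Il6 stood at 12.3 FPKM in ASA replicate 0, above 0.432 to 1.64 FPKM in the other curcumin-free libraries. Gcnt1 stood at 11.4 FPKM in ASA replicate 0, above 5.54 to 6.04 FPKM in the other curcumin-free libraries and just under the lowest curcumin-containing value. Snora70 was listed at 0 FPKM in CUR replicate 0 and stood at 35.4 to 40.5 FPKM in the other 3 curcumin-containing libraries. Pcsk1 stood at 0.890 FPKM in CUR replicate 0, in a group whose other values spanned only 0.820 to 0.826 FPKM.

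In 3 of the 48 lists the mean level of every ASA+CUR library lay below that of both ASA libraries, while that of every CUR library lay above that of both Model libraries. They are the interferon response, with medians of -1.35 for ASA+CUR minus ASA and 1.10 for CUR minus Model, cytokines and chemokines, with -0.55 and 0.24, and NF-kB targets, with -0.26 and 0.15. For the lists as such the difference between pairs was not tested. Gene by gene, 24 of 29, 4 of 26 and 3 of 20 members had an unadjusted p under 0.05 for it, all negative. Beside them stood 2.33% of all genes, and none passed adjustment.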

How the results depend on the processing

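In the curcumin comparison 0 genes passed under every alternative except the unfiltered fit, where 1 passed (Uts2), and 0 to 2 passed with a library left out (2 without ASA replicate 0, Gm12888 and Tppp3; 2 without CUR replicate 0, Snora15 and Snora70; 1 each without Model replicate 1, CUR replicate 1 or ASA+CUR replicate 0). CUR against Model had 1 call (NM_010039) and 0 under a pseudocount of 0.1, no filter, the 8 AOM/DSS libraries alone, the replicate block and the position covariate, with 0 to 3 on leaving a library out (2 without CUR replicate 0, 3 without CUR replicate 1, 1 without either Model replicate and 0 otherwise). ASA+CUR against ASA had 2 calls without the filter (H2ac15 and Uts2) and 0 to 1 on leaving a library out (1 without either CUR replicate or ASA+CUR replicate 0). The difference between pairs had 0 to 1 on leaving a library out (1 without Model replicate 1, either CUR replicate or ASA+CUR replicate 0). The aspirin comparison had 2 calls and 1 (Hba-a2) under no filter, the 8 libraries alone, the replicate block, no trend, the position covariate and the additive fit, and 1 to 1286 on leaving a library out, the highest without CUR replicate 1. Beyond fewer samples, the cause of these shifts was not tested. Replicate numbers did not pair the samples (correlations of deviations between groups from -0.21 to 0.33); with the replicate block the curcumin comparison had 649 genes at an unadjusted p under 0.05, against 623. The 30 leading genes kept their direction in all 600 values. They were chosen by p in the same data, and several settings return the same estimate, so this gives no independent support. Of the 18 tested fixed genes, 11 changed sign in some setting. Leaving a library out gave log2 differences from -1.09 to 0.14 for Hmox1, -0.032 to 0.21 for Gclc, -0.25 to 0.58 for Srxn1, -0.30 to 0.036 for Txnrd1, -1.09 to 0.20 for Il6, -0.11 to 0.27 for Tnf, -0.36 to 0.18 for Il1b, -0.035 to 0.50 for Axin2, -0.087 to 0.25 for Myc, -0.49 to 0.47 for Tfrc and -0.12 to 0.15 for Dnmt1. With the position covariate Tnf was -0.011 and Dnmt1 -0.193, and with the squamous covariate Dnmt1 was -0.024. FPKM removes depth, so limits from read numbers are unknown.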
